A study of Mus musculus with 24 samples.

Results

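The 10 genes followed here act late in red cell formation, when the erythroblast expels its nucleus and the reticulocyte clears ribosomes, mitochondria and surplus protein, and their RNA was measured in the bone marrow of 24 mice. They are Ube2o, Ube2h, Ube2l6, Trim58, Trim10, Xpo7, Bnip3l, Ulk1, Fbxo7 and Hemgn, 10 of the 54752 genes in the table, and all 10 passed the filter of more than 1 TPM in at least 1 library. Of these, 8 were taken for their function, though with earlier results of these data known, while Ube2o and Hemgn were chosen by their fall in these data. The values of these 2 genes are therefore given as a description, with no test, and counts of calls cover the other 8 genes.

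The mice were males of the C57BL/6 background, either wild type (WT) or knockout (KO) for Nrf2, the transcription factor encoded by Nfe2l2. Flight (FL) mice stayed at the International Space Station for 31 days, and ground control (GC) mice were housed in the same kind of single cages on Earth. Genotype and condition together gave 4 groups (GC-WT, GC-KO, FL-WT and FL-KO) of 6 mice each, with a library per mouse, and the flight animals were 8 weeks old when brought to the launch site. Bone marrow cells of the right pelvis and tibia were collected after landing and cryopreserved before RNA isolation. In flow cytometry of thawed cells, the study found that cells with Ter119, an erythroid surface marker, survived very poorly in all mice. Viability after freezing also varied between samples. For RNA the reagent was added directly to the cryopreserved cells, and whether freezing cost erythroid RNA was not tested. Flight, landing and the site of cell collection cannot be told apart in this design, and the marrow was not sorted by cell type.

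In maturing erythroblasts, ubiquitin enzymes mark proteins and ribosomes for the proteasome, nuclear proteins are exported before the nucleus is extruded, and autophagy removes the mitochondria. These steps turn a nucleated precursor into a cell filled with haemoglobin. Genes of this kind are usually switched on in late erythroblasts together with the globin genes.

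RefSeq (GRCm38.p6) gave promoter windows, from 250 bases before to 50 bases after a start site, for Ube2h, Ube2l6, Trim58, Trim10, Ulk1, Fbxo7 and Hemgn, with 2 start sites each for Ube2h and Fbxo7, so 9 windows in all. No window was available for Ube2o, Xpo7 and Bnip3l, so the motif counts leave these genes out. Windows are shown for the genes that passed the flight test, except Xpo7, and for those that hold AGATAA, the core motif of GATA factors. Each is written from 5′ to 3′ on the strand of its gene, with AGATAA, or TTATCT where the motif lies on the other strand, in capitals.

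Trim58, chr11:58640215-58640514, plus strand: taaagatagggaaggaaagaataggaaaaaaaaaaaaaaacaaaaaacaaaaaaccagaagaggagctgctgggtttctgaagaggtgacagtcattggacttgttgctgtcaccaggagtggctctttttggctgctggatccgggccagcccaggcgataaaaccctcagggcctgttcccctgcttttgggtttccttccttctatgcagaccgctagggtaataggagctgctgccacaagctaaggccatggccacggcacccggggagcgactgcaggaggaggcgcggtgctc
Ulk1, chr5:110810032-110810331, minus strand: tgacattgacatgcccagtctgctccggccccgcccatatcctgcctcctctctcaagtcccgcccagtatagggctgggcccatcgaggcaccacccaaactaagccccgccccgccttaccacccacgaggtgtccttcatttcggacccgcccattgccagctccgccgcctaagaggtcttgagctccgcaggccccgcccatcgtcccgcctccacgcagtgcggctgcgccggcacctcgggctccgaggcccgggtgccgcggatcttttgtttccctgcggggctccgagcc
Trim10, chr17:36869324-36869623, plus strand: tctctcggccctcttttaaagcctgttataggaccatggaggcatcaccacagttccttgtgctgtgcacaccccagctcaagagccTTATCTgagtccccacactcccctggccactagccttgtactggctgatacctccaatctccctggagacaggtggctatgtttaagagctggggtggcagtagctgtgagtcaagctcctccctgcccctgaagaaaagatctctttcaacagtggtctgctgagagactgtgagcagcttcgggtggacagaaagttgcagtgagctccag
Ube2h, chr6:30243754-30244053, minus strand: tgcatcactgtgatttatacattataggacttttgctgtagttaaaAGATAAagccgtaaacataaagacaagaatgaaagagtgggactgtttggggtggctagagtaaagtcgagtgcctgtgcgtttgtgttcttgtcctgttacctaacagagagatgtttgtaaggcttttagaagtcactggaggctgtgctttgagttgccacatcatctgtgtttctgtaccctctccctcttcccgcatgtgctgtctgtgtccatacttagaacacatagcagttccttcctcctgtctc
Hemgn, chr4:46404134-46404433, minus strand: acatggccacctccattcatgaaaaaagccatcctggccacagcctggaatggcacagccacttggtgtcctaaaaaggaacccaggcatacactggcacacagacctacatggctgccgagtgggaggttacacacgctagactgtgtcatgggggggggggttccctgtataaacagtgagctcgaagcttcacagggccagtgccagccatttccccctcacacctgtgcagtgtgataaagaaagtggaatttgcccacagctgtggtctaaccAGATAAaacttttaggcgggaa

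AGATAA was found on either strand in 3 of the 9 windows and in 11.2% of all 32851 RefSeq promoter windows of the same length. Counted from the start site, its first base lay at -163 for Trim10, at -204 for Ube2h and at 28 for Hemgn. The Ube2h match belongs to a start site inside the gene, and the Ube2h window at the 5′ end of the gene held 0 matches. CACCC, the core of KLF motifs, lay in 6 of the 9 windows and in 57.5% of all windows. TGACNNNGC, the core of the antioxidant response element bound by Nrf2, was in 0 of the 9 windows and in 12.4% of all windows. The 3 motifs do not overlap in these windows, and a match or its absence describes only these letters.

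The values are TPM, estimated by the authors with RSEM, which give a transcript's length-corrected share of a library scaled to the same total in all libraries. The table holds no read counts, so the depth of the libraries is unknown. The limma fit of log2(TPM + 1) took in 24 libraries and 12373 genes. A gene was called where its p, adjusted by Benjamini and Hochberg's method, was under 0.1 and its level differed at least 2-fold. Fold changes on this scale are smaller than the ratios of TPM for genes at a few TPM. Nfe2l2 ranged from 17.05 to 26.06 TPM in GC-WT and from 3.6 to 7.18 TPM in GC-KO mice, and was at 11.39 to 27.26 TPM in FL-WT and 2.22 to 4.31 TPM in FL-KO mice, so no KO library overlapped a WT library of the same condition. Over all 12373 genes the median log2 difference was -0.24 for flight in WT mice, -0.29 for flight in KO mice, -0.22 for KO on the ground and -0.25 for KO in flight. With median-of-ratios scaling between libraries, these medians moved to 0.025, -0.001, 0.019 and 0.018. The split of calls over all genes moved with it, from 116 lower and 8 higher to 15 lower and 22 higher for flight in WT mice, and from 264 lower and 0 higher to 22 lower and 8 higher for flight in KO mice. For genotype it moved from 376 lower and 16 higher to 70 lower and 30 higher on the ground, and from 1034 lower and 12 higher to 424 lower and 26 higher in flight.

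Part of this set was lower after flight in both genotypes. In FL-WT vs. GC-WT, Trim58 and Xpo7 fell (2 of the 8 genes, where 0.938% of all tested genes were called lower). Among KO mice, Trim58, Xpo7 and Ulk1 fell (3 of the 8, where 2.13% of all were called lower). Bnip3l and Ube2l6, the genes with the highest TPM of the set, stayed closest to their ground levels in WT mice. The median log2 fold change of the 10 genes was -0.80 in WT and -1.03 in KO mice, and that of the 8 genes was -0.77 and -0.94. With median-of-ratios scaling these medians were -0.44 and -0.62 for the 10 genes and -0.40 and -0.53 for the 8. Lower RNA of an erythroid gene can come from fewer erythroid cells or from less RNA in each of them, which cannot be told apart in bulk marrow.

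**Figure D1:**
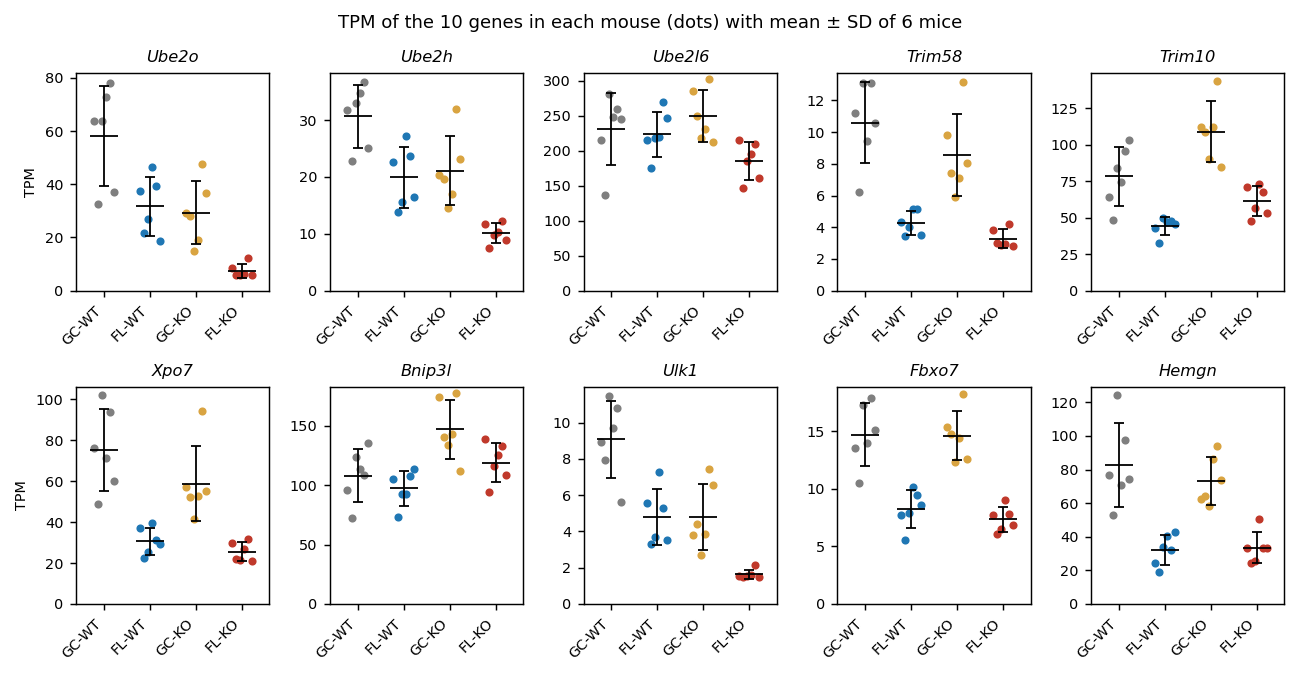
TPM of each gene (vertical axes, starting at 0) in each mouse by group, with the mean ± SD of 6 mice as black bars. For Trim58, Xpo7, Fbxo7 and Hemgn all 6 FL-WT mice lie below all 6 GC-WT mice, while Ube2l6 and Bnip3l overlap between ground and flight in both genotypes.

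Trim58 (ENSMUSG00000037124.6, chr11:58640465-58652404, plus strand) encodes an erythroid ubiquitin ligase that directs the motor protein dynein to degradation before the nucleus is expelled. Its TPM ranged from 6.24 through a median of 10.88 to 13.09 in GC-WT mice and from 3.45 through 4.16 to 5.16 in FL-WT mice. It ranged from 5.89 through 7.72 to 13.19 in GC-KO mice and from 2.83 through 2.99 to 4.2 in FL-KO mice. In both genotypes the flight range lay below the ground range. The log2 fold change was -1.12 ± 0.16 (SE, n = 6 per group, limma adjusted p = 5.51e-05) in WT and -1.13 ± 0.16 (SE, adjusted p = 2.62e-05) in KO mice. The genotype comparisons did not pass the test, with -0.28 ± 0.16 (SE, adjusted p = 0.168) on the ground and -0.29 ± 0.16 (SE, adjusted p = 0.147) in flight, but with GC content and length trends removed the value in flight turned to 0.40 (adjusted p = 0.0178).

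Xpo7 (ENSMUSG00000022100.14, chr14:70654246-70766628, minus strand) encodes exportin 7, a nuclear export receptor that carries nuclear proteins out of erythroblasts as the nucleus condenses. It shares 39 exonic bases with Npm2 on the same strand. Its TPM ranged from 48.74 through a median of 73.65 to 102.08 in GC-WT mice and from 22.31 through 30.23 to 39.4 in FL-WT mice. In KO mice it ranged from 41.51 through 53.89 to 94.3 on the ground and from 20.96 through 24.57 to 31.62 in flight. The groups did not overlap in either genotype, and the mean in flight was 0.408 of the ground mean in WT and 0.433 in KO mice. The fold changes were -1.25 ± 0.18 (SE, adjusted p = 5.96e-05) in WT and -1.15 ± 0.18 (SE, adjusted p = 6.34e-05) in KO mice on the log2 scale. Ordered from the lowest fold change, Xpo7 ranked 30 of 12373 genes for flight in WT mice and 128 for flight in KO mice. Between genotypes, Xpo7 was at -0.35 ± 0.18 (SE, adjusted p = 0.126) on the ground and -0.25 ± 0.18 (SE, adjusted p = 0.281) in flight.

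The 2-fold part of these calls depended on the scaling. With median-of-ratios scaling, Trim58 was at -0.77 (adjusted p = 0.000747) in WT and -0.76 (adjusted p = 0.000711) in KO mice, and Xpo7 was at -0.87 (adjusted p = 0.000246) and -0.71 (adjusted p = 0.00118). The tests still passed the adjusted p, but 0 of the 8 genes then reached 2-fold in either flight comparison. Xpo7 in KO mice was also short of 2-fold without the 5 small RNAs named further on, at -0.98.

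Fbxo7 (ENSMUSG00000001786.14, chr10:86021972-86051873, plus strand) encodes an F-box protein, which brings substrates to an SCF ubiquitin ligase and binds the proteasome regulator encoded by Psmf1. On the opposite strand, 314 of its exonic bases are shared with A230060F14Rik, and the library kit kept the strand, although the strand setting of the counting is not given in the sources used here. Its TPM was 10.5 to 17.89 (median 14.55) in GC-WT and 5.54 to 10.18 (median 8.24) in FL-WT mice, and 12.35 to 18.23 (median 14.59) in GC-KO and 6.05 to 9.02 (median 7.305) in FL-KO mice. The ranges of ground and flight did not overlap in either genotype. The fold changes of -0.77 ± 0.13 (SE, adjusted p = 0.000303) in WT and -0.90 ± 0.13 (SE, adjusted p = 3.6e-05) in KO mice passed the adjusted p but not 2-fold. On the TPM scale the genotypes were close on the ground, with means of 14.7 ± 2.7 and 14.6 ± 2.14 TPM (SD, n = 6) in WT and KO mice, but Fbxo7 was higher in KO mice by 0.31 (adjusted p = 0.0143) with median-of-ratios scaling.

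Trim10 (ENSMUSG00000073400.6, chr17:36869574-36877833, plus strand) encodes another TRIM protein with a ubiquitin ligase RING domain that is made in erythroid cells. Of the 8 genes it alone was higher in KO than in WT mice at the adjusted p both on the ground and in flight on the TPM scale. With median-of-ratios scaling Bnip3l and Fbxo7 were too. Its TPM ranged from 48.38 through a median of 79.37 to 103.52 in GC-WT mice and from 32.9 through 46.42 to 49.58 in FL-WT mice. It ranged from 84.54 through 110.4 to 143.53 in GC-KO mice and from 48.11 through 62.13 to 73.47 in FL-KO mice. In WT mice 5 of the 6 flight mice were below all ground mice, and in KO mice all 6 were. Flight gave -0.78 ± 0.16 (SE, adjusted p = 0.0012) in WT and -0.80 ± 0.16 (SE, adjusted p = 0.000574) in KO mice, and with median-of-ratios scaling -0.40 (adjusted p = 0.0615) and -0.36 (adjusted p = 0.0824). The KO genotype gave 0.49 ± 0.16 (SE, adjusted p = 0.0172) on the ground and 0.46 ± 0.16 (SE, adjusted p = 0.0195) in flight, and the WT and KO groups overlapped in both. Trim10 reached 2-fold in none of the 4 comparisons.

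Ulk1 (ENSMUSG00000029512.11, chr5:110784488-110810097, minus strand) encodes the kinase that starts autophagy and is needed for timely loss of mitochondria and ribosomes in reticulocytes. It was the only 1 of the 8 genes called in a genotype comparison, and it was low throughout. Its TPM ranged from 5.61 through a median of 9.315 to 11.48 in GC-WT mice and from 3.32 through 4.49 to 7.27 in FL-WT mice. It ranged from 2.72 through 4.14 to 7.42 in GC-KO mice and from 1.46 through 1.535 to 2.16 in FL-KO mice. All 6 FL-KO mice were below every mouse of the other groups. Flight gave -0.81 ± 0.18 (SE, adjusted p = 0.00259) in WT mice, which did not reach 2-fold, and Ulk1 fell in KO mice with -1.09 ± 0.18 (SE, adjusted p = 0.000111). Between genotypes it was at -0.83 ± 0.18 (SE, adjusted p = 0.00116) on the ground and fell in flight with -1.10 ± 0.18 (SE, adjusted p = 2.5e-05). Both calls sat at the 2-fold limit. Without GC-KO mouse 11 the flight value in KO mice was -0.97, and without FL-WT mouse 07 the genotype value in flight was -0.99. With median-of-ratios scaling these values were -0.78 (adjusted p = 0.000241) and -0.83 (adjusted p = 1.95e-05), and with the trends with GC content and length removed they were -0.65 and -0.48. Ulk1 and Ube2o transcripts have the highest GC content of the 10 genes, 58.0% and 58.2%.

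Bnip3l (ENSMUSG00000022051.15, chr14:66985239-67008877, minus strand) encodes Nix, the mitochondrial receptor that recruits the autophagy machinery in reticulocytes. Its TPM was 72.69 to 135.63 (median 110.8) in GC-WT and 72.89 to 113.46 (median 98.9) in FL-WT mice, and 112.23 to 177.8 (median 142.0) in GC-KO and 94.16 to 138.76 (median 120.8) in FL-KO mice. Ground and flight mice overlapped in both genotypes. Flight gave -0.14 ± 0.14 (SE, adjusted p = 0.463) in WT and -0.29 ± 0.14 (SE, adjusted p = 0.0965) in KO mice, at or above the median of all genes. With median-of-ratios scaling these values turned to 0.25 (adjusted p = 0.247) and 0.15 (adjusted p = 0.461). Bnip3l was higher in KO than in WT mice on the ground (0.45 ± 0.14, SE, adjusted p = 0.0153), while in flight the difference of 0.29 ± 0.14 did not pass (SE, adjusted p = 0.104), although with median-of-ratios scaling it was 0.69 (adjusted p = 0.000584). On the ground the genotype difference of Bnip3l was thus opposite in sign to that of Ulk1.

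Ube2o, Ube2h and Ube2l6 encode E2 enzymes. Ube2o (ENSMUSG00000020802.8, chr11:116537740-116581447, minus strand) encodes a large enzyme with both E2 and E3 activity that marks ribosomal proteins and unpaired alpha-globin for degradation in reticulocytes. Its TPM ranged from 32.54 through a median of 63.83 to 78.11 in GC-WT mice and from 18.75 through 32.09 to 46.35 in FL-WT mice. It ranged from 15.05 through 28.64 to 47.63 in GC-KO mice and from 5.78 through 6.135 to 12.31 in FL-KO mice. The FL-KO mice lay below all other 18 libraries, and the FL-WT and GC-KO groups overlapped almost fully. As a description of a gene selected on its fall, the log2 differences were -0.85 for flight in WT, -1.79 for flight in KO, -0.99 for KO on the ground and -1.92 for KO in flight.

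Ube2h (ENSMUSG00000039159.16, chr6:30211289-30304539, minus strand) encodes the E2 enzyme that works with the CTLH ubiquitin ligase in erythroblasts. The TPM ranged from 22.86 through a median of 32.36 to 36.77 in GC-WT, from 13.91 through 19.52 to 27.17 in FL-WT and from 14.53 through 20.05 to 32.01 in GC-KO mice. In FL-KO mice it ranged from 7.56 through 9.99 to 12.29, below every mouse of the other 3 groups. Flight gave -0.62 ± 0.17 (SE, adjusted p = 0.0107) in WT and -0.97 ± 0.17 (SE, adjusted p = 0.000191) in KO mice. The KO genotype gave -0.54 ± 0.17 (SE, adjusted p = 0.0149) on the ground and -0.89 ± 0.17 (SE, adjusted p = 0.000141) in flight. None of these reached 2-fold, although the flight value in KO mice lay just short of it. That value was -1.02 without FL-KO mouse 01, -1.03 without FL-KO mouse 11, -1.07 without GC-KO mouse 04, -1.02 without GC-KO mouse 09 and -1.03 with a pseudocount of 0.1, each of which passed. With median-of-ratios scaling the flight value in WT mice was -0.25 and no longer passed the adjusted p (0.155).

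Ube2l6 (ENSMUSG00000027078.14, chr2:84798828-84810335, plus strand) encodes the E2 enzyme that conjugates the ubiquitin-like protein ISG15 and had the highest TPM of the set. It ranged from 136.17 through a median of 246.5 to 280.98 in GC-WT, from 174.83 through 219.5 to 269.8 in FL-WT, and in KO mice from 212.93 through 240.7 to 302.66 on the ground and from 147.27 through 190.4 to 216.17 in flight. The WT groups overlapped almost fully, while 5 of the 6 FL-KO mice were below all GC-KO mice. Flight gave -0.02 ± 0.15 (SE, adjusted p = 0.937) in WT and -0.43 ± 0.15 (SE, adjusted p = 0.0244) in KO mice. With median-of-ratios scaling these values were 0.37 (adjusted p = 0.0752) and 0.02 (adjusted p = 0.933), so the direction in WT mice turned. The genotype values of 0.14 ± 0.15 (SE, adjusted p = 0.487) on the ground and -0.27 ± 0.15 (SE, adjusted p = 0.147) in flight did not pass on the TPM scale, while the ground value was 0.48 (adjusted p = 0.0124) with median-of-ratios scaling.

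Hemgn (ENSMUSG00000028332.13, chr4:46393989-46413506, minus strand) encodes hemogen, a nuclear protein of erythroid cells that acts downstream of GATA1. Its TPM ranged from 52.99 through a median of 75.61 to 124.15 in GC-WT and from 19.12 through 32.93 to 42.74 in FL-WT mice, and from 58.57 through 69.01 to 94.1 in GC-KO and from 24.58 through 33.14 to 50.36 in FL-KO mice. Flight mice lay below ground mice without overlap in both genotypes. The log2 differences of this gene, also chosen by its fall, were -1.34 for flight in WT, -1.13 for flight in KO, -0.15 for KO on the ground and 0.07 for KO in flight.

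**Figure D2:**
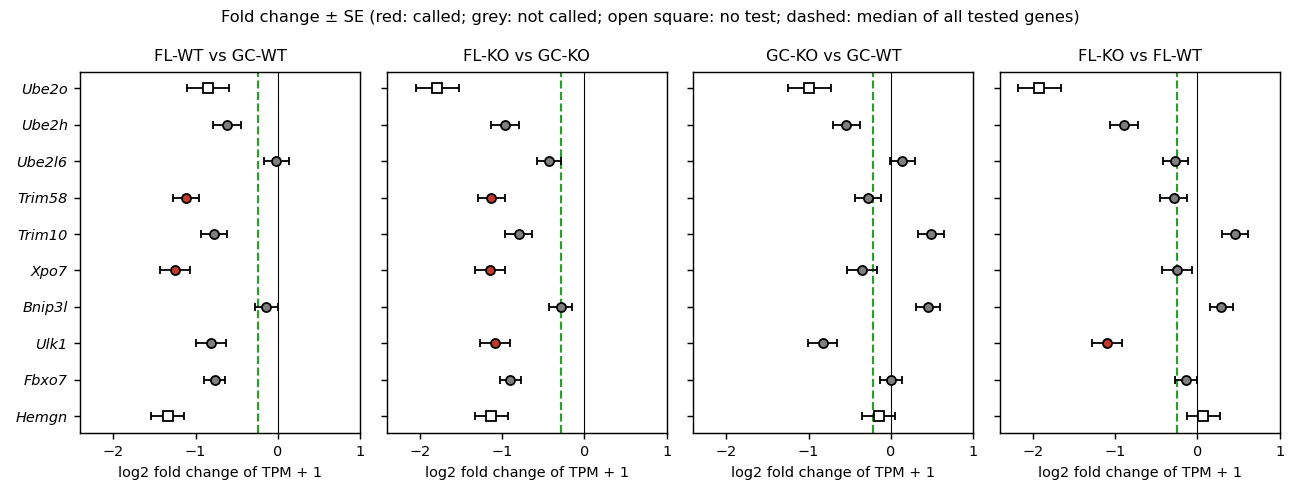
Log2 fold change ± SE of TPM + 1 (horizontal axes) of the 10 genes in the 4 comparisons, with called genes in red, other tested genes in grey, the 2 genes chosen by their fall as open squares and the median of all tested genes as a dashed line. Flight values lie at or left of 0 for all 10 genes in both genotypes, while genotype values fall on both sides (with median-of-ratios scaling, Ube2l6 and Bnip3l turn to values above 0 in flight).

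Counted over the set, all 6 FL-WT mice were below all 6 GC-WT mice for 3 of the 8 genes taken for function (4 of 10 with Hemgn), where 4.19% of all tested genes showed this. All 6 FL-KO mice were below all 6 GC-KO mice for 6 of the 8 genes (8 of 10 with Ube2o and Hemgn), against 18.4% of all genes. Without a minimum fold, the adjusted p passed with lower values for 6 of the 8 genes in WT and 8 of the 8 in KO mice, against 39.0% and 53.1% of all genes.

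The genotype comparisons gave a mixed picture. In GC-KO vs. GC-WT, limma called 0 of the 8 genes lower, against 3.04% of all genes, while 4 of the 8 had an unadjusted p under 0.05. The share of all genes at that unadjusted cut is not given, here or for the lists below. At the adjusted p alone, 39.0% to 53.1% of all genes were already lower in the 4 comparisons, so counts at the unadjusted cut do not set a list apart. Ube2h and Ulk1 were lower and Trim10 and Bnip3l higher at the adjusted p alone, where 42.9% of all genes were lower and 387 of the 12373 higher. For KO in flight, 1 of the 8 genes was called lower, against 8.36% of all genes. At the adjusted p alone Ube2h and Ulk1 were lower and Trim10 higher, where 47.2% of all genes were lower and 236 of the 12373 higher. With median-of-ratios scaling this split became 1 lower (Ulk1) and 4 higher (Trim10, Bnip3l, Ube2l6 and Fbxo7) on the ground, and 2 lower (Ube2h and Ulk1) and 3 higher (Trim10, Bnip3l and Fbxo7) in flight. Of all 12373 genes, 3577 were then lower and 3501 higher on the ground, and 4065 lower and 3943 higher in flight. The KO mice lay below the WT mice without overlap for 0 of the 10 genes on the ground, against 9.15% of all genes. In flight they did so for Ube2o, Ube2h and Ulk1, 2 of the 8 genes taken for function, against 20.6%. The medians of the 10 genes were -0.21 on the ground and -0.26 in flight on the TPM scale, and turned to 0.11 and 0.13 with median-of-ratios scaling.

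Whether flight acted differently in the genotypes was tested as an interaction. Limma called 0 of the 8 genes, 0 of the 8 had an unadjusted p under 0.05, and 0.0162% of all genes (2) were called. The difference furthest from 0 among the 8 was that of Ube2l6, at -0.41 ± 0.21 (SE, flight in KO minus flight in WT, log2 scale, limma adjusted p = 1.0). Ube2h gave -0.35 ± 0.24 (SE) and Ulk1 -0.28 ± 0.26 (SE). The values for Trim58 and Trim10 were -0.01 ± 0.23 and -0.02 ± 0.23 (SE). For Ube2o the same difference was -0.93, given without a test.

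The mice of a group varied together. GC-WT mouse 05 had the lowest value of its group for 9 of the 10 genes, FL-WT mouse 05 likewise for 9, and GC-KO mouse 11 had the highest value for all 10. GC-WT mouse 05 also had the lowest globin share of the 24 libraries, 8.62% of TPM, and the highest share of 5 small RNAs (Rmrp, Rpph1, Rn7sk, Rn7s1 and Rn7s2) of its group, 58.2%. FL-WT mouse 05 had the highest small RNA share of all libraries, 59.6%, and GC-KO mouse 11 the lowest, 35.4%, with the highest globin share, 24.3%. Leaving out either mouse 05 changed no call of the 8 genes.

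**Figure D3:**
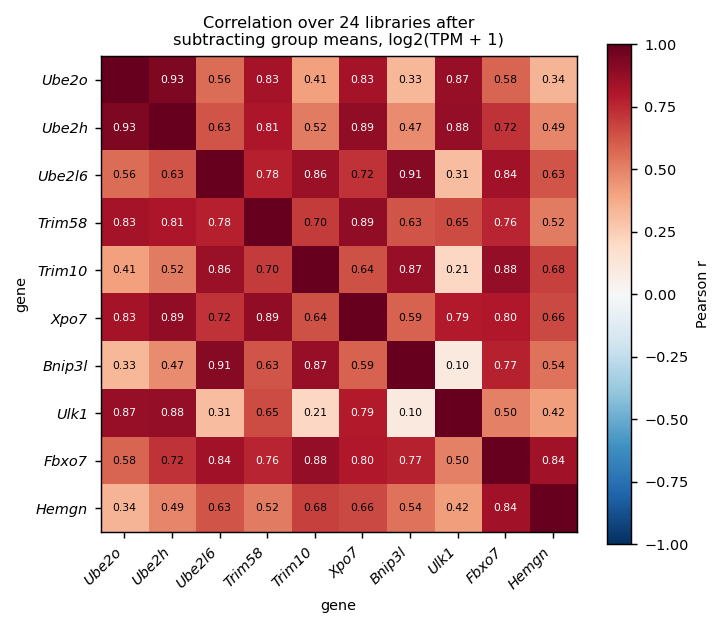
Pearson's r between members over the 24 libraries, on log2(TPM + 1) after each group's mean was subtracted. Ube2o, Ube2h, Xpo7 and Ulk1 pair at 0.79 to 0.93, and Ube2l6, Trim10, Bnip3l and Fbxo7 at 0.77 to 0.91, while Ulk1 and Bnip3l have 0.10. Across these sets, Fbxo7 and Xpo7 have 0.80.

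After subtraction of the group means, the members varied together among mice to different degrees. Ube2o and Ube2h had r = 0.93 and Ulk1 and Ube2h r = 0.88, while Bnip3l and Ube2l6 had r = 0.91 and Fbxo7 and Trim10 r = 0.88. Ulk1 had r = 0.10 with Bnip3l and r = 0.21 with Trim10. The members did not split into separate blocks, as Fbxo7 had r = 0.80 with Xpo7. Trim58 had r = 0.89 with Xpo7 and r = 0.78 with Ube2l6. These values describe 24 libraries that share the same TPM scale, so a change in an abundant RNA moves all genes of a library. In a pool of 5025 genes at a mean of 5 TPM or more, the gene most like Ube2o over the 24 libraries was Ucp2 (r = 0.99, or 0.946 after subtraction), which encodes a mitochondrial carrier, and Ube2h was the third (r = 0.978). The gene most like Xpo7 was Ranbp10 (r = 0.987, or 0.951), and Xpo7 was the third most like Trim58 (r = 0.978, or 0.887). Bpgm, the red cell enzyme that makes 2,3-bisphosphoglycerate, was most like Ube2l6 (r = 0.924, or 0.93), and Isca1, a mitochondrial iron-sulphur protein, was most like Bnip3l (r = 0.963, or 0.947). Gypc, which encodes glycophorin C, was most like Hemgn (r = 0.989, or 0.958). For Trim10 it was Prdx2 (r = 0.976, or 0.929), an abundant peroxiredoxin of red cells, for Ulk1 Tpcn1 (r = 0.991, or 0.949), for Trim58 Sowaha (r = 0.985, or 0.943), for Ube2h Tcp11l2 (r = 0.985, or 0.957) and for Fbxo7 Ppp1r15a (r = 0.985, or 0.931). The correlations over all libraries include the differences between groups.

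The partners of the members did not all move with them. Ranbp10, a scaffold of the CTLH ligase, fell in WT (from 37.8 ± 9.05 to 15.4 ± 3.25 TPM, SD, n = 6, log2 fold change -1.23 ± 0.17, SE, adjusted p = 4.46e-05) and in KO mice (-1.28 ± 0.17, SE, adjusted p = 1.49e-05). Maea, a catalytic subunit of the same ligase, was at -0.07 ± 0.16 (SE, adjusted p = 0.739) in WT and -0.28 ± 0.16 (SE, adjusted p = 0.166) in KO mice. Rmnd5a and Rmnd5b of this ligase were named after their values were seen. Rmnd5a was at -0.54 ± 0.13 (SE, adjusted p = 0.00517) in WT and -0.57 ± 0.13 (SE, adjusted p = 0.00212) in KO mice. Rmnd5b was at -0.07 ± 0.18 (SE, adjusted p = 0.783) and -0.36 ± 0.18 (SE, adjusted p = 0.102). Of the 11 CTLH genes, 1 was called lower in each flight comparison, with medians of -0.40 and -0.42. At the adjusted p alone 8 were lower in each, against 39.0% of all genes in WT and 53.1% in KO mice. In the KO comparisons limma called 0 of 11, with 4 on the ground and 5 in flight at an unadjusted p under 0.05.

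Of the 29 tested genes for other E2 enzymes, limma called 0 in each of the 4 comparisons, with 9 and 12 at an unadjusted p under 0.05 for flight in WT and KO mice, and 10 and 11 for genotype on the ground and in flight. Their flight medians of -0.21 and -0.29 were near those of all genes. In the ISG15 system, which Ube2l6 serves, Isg15 itself was lower in flight in WT (from 47.0 ± 9.06 to 29.7 ± 2.7 TPM, SD, n = 6, -0.63 ± 0.13, SE, adjusted p = 0.00117) and in KO mice (-0.72 ± 0.13, SE, adjusted p = 0.000236), without reaching 2-fold. Uba7, the E1 enzyme of ISG15, was at -0.75 ± 0.15 (SE, adjusted p = 0.000794) in WT mice and fell in KO mice (-1.02 ± 0.15, SE, adjusted p = 2.74e-05), 1 of the 4 genes of the list. In WT mice 0 of the 4 were called, with 4 at an unadjusted p under 0.05, while Ube2l6 was at -0.02 there. For genotype 0 of the 4 were called, with 3 on the ground and 2 in flight at an unadjusted p under 0.05.

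For Fbxo7, the SCF subunits Skp1a and Cul1 were at -0.03 ± 0.14 (SE, adjusted p = 0.889) and -0.32 ± 0.13 (SE, adjusted p = 0.0758) for flight in WT mice, and at -0.05 and -0.29 in KO mice. Psmf1, named after its values were seen, was lower in both, at -0.73 ± 0.16 (SE, adjusted p = 0.00219) and -0.77 ± 0.16 (SE, adjusted p = 0.000884). Of the 4 genes of this list limma called 0 in every comparison, with 2, 2, 1 and 1 at an unadjusted p under 0.05 in the order given above. The other exportins were called 0 times of 6 in flight, with 4 and 6 at an unadjusted p under 0.05 and medians of -0.35 and -0.47. At the adjusted p alone 4 and 6 were lower, against 39.0% of all genes in WT and 53.1% in KO mice. Ranbp17, a close relative of Xpo7, did not pass the filter on low values. Xpo6, which exports actin, fell with the KO genotype in flight (-1.24 ± 0.18, SE, adjusted p = 6.45e-06), 1 of 6, while 0 of 6 were called on the ground, with 3 at an unadjusted p under 0.05.

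Of 12 further genes with a part in enucleation, limma called 0 in FL-WT vs. GC-WT, with 5 at an unadjusted p under 0.05. In FL-KO vs. GC-KO 1 was called, Foxo3, a transcription factor of erythroid maturation (-1.20 ± 0.2, SE, adjusted p = 8.55e-05). Rac2, a small GTPase also abundant in white cells, fell in GC-KO vs. GC-WT (-1.01 ± 0.21, SE, adjusted p = 0.000853), 1 of 12. For KO in flight 4 were called, of which Rac2 (-1.45 ± 0.21, SE), the histone acetyltransferase gene Kat2a (-1.13 ± 0.17, SE) and Vim (-1.06 ± 0.17, SE), the gene of the filament protein vimentin, changed most.

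Of 32 other autophagy genes, limma called 0 in each flight comparison, with 19 and 24 at an unadjusted p under 0.05 and medians of -0.33 and -0.40. At the adjusted p alone 19 and 25 were lower, against 39.0% of all genes in WT and 53.1% in KO mice. In KO mice on the ground 2 of the 32 fell, Atg9a (-1.03 ± 0.19, SE, adjusted p = 0.000454) and Atg2a (-1.02 ± 0.18, SE, adjusted p = 0.000411), which encode a lipid scramblase and a lipid transfer protein of the growing autophagosome. For KO in flight 3 of the 32 fell, Atg9a (-1.40 ± 0.19, SE), Atg2a (-1.21 ± 0.18, SE) and Atg7 (-1.09 ± 0.18, SE). Ulk2, the paralogue of Ulk1, was at -0.27 ± 0.12 (SE, adjusted p = 0.0817) in WT and -0.31 ± 0.12 (SE, adjusted p = 0.0365) in KO flight mice, and Rb1cc1, a scaffold of the Ulk1 complex, at -0.36 ± 0.13 (SE, adjusted p = 0.04) and -0.40 ± 0.13 (SE, adjusted p = 0.0198). Of 7 tested mitophagy receptors other than Bnip3l, limma called 0 in every comparison, with 2, 4, 4 and 4 at an unadjusted p under 0.05. Bnip3, the relative of Bnip3l, had a mean of 4.73 ± 1.27 TPM in WT ground mice against 4.53 ± 1.13 TPM in WT flight mice (SD, n = 6).

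**Figure D4:**
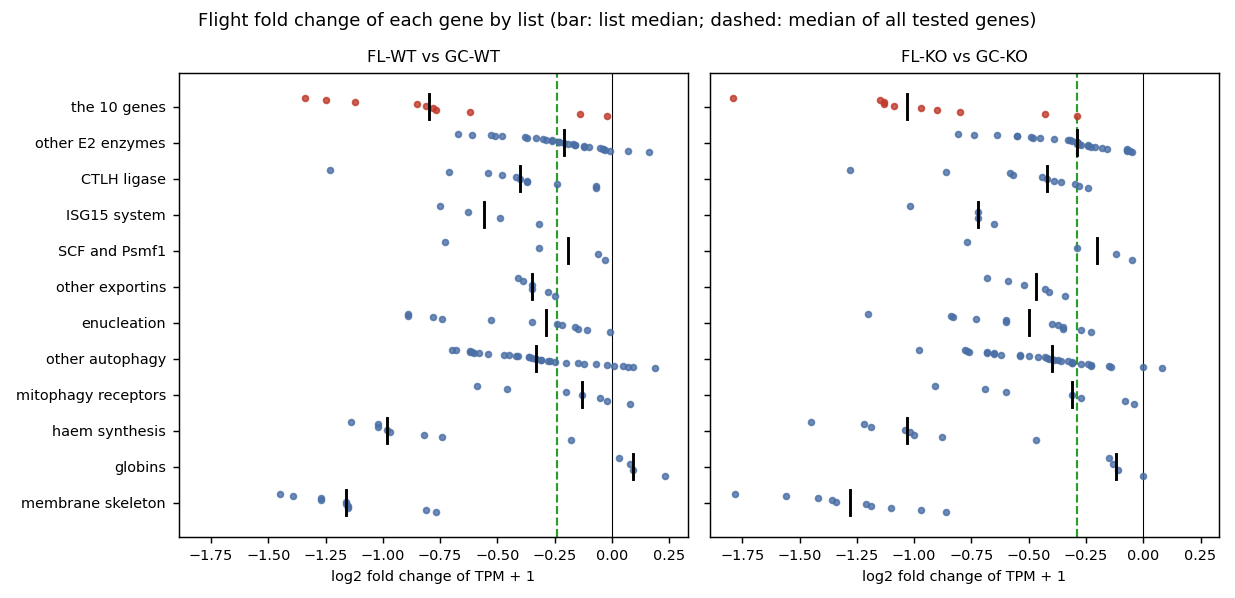
Log2 fold change of TPM + 1 for flight (horizontal axes) of each tested gene by list in WT and KO mice, with the list median as a bar and the median of all tested genes as a dashed line. Haem synthesis genes other than Alas2 (-0.18 in WT and -0.47 in KO mice) and membrane skeleton genes lie lowest, globins at -0.15 to 0.23, and other E2 enzymes around the median of all genes.

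Other late erythroid genes were split in the same comparisons on the TPM scale. Of the 10 genes of the membrane skeleton, 8 were called lower in WT and 8 in KO flight mice, with medians of -1.16 and -1.28. Sptb, the beta-spectrin gene, changed most in WT mice (-1.45 ± 0.22, SE, adjusted p = 6.43e-05), and Slc4a1, the gene of the anion exchanger band 3, in KO mice (-1.78 ± 0.2, SE, adjusted p = 8.3e-06). For genotype 0 of the 10 were called on the ground, with 7 at an unadjusted p under 0.05, and 1 in flight, Slc4a1 (-1.06 ± 0.2, SE). Of the 8 haem synthesis genes, 3 and 5 were called lower, with medians of -0.98 and -1.03. Alas2, the gene of this list with the highest TPM, was not called, and its ground and flight groups overlapped in both genotypes. It was at -0.18 ± 0.18 (SE, adjusted p = 0.45) in WT and -0.47 ± 0.18 (SE, adjusted p = 0.0428) in KO mice. Between genotypes 0 of the 8 were called, with 0 on the ground and 3 in flight at an unadjusted p under 0.05. In flight Cpox, the coproporphyrinogen oxidase gene, changed most in WT and KO mice, with -1.14 ± 0.2 (SE, adjusted p = 0.000346) and -1.45 ± 0.2 (SE, adjusted p = 2.4e-05). Of the 4 globin genes, limma called 0 in flight, with 0 at an unadjusted p under 0.05 in either genotype and medians of 0.09 and -0.12. For genotype 0 were called as well, with 2 on the ground and 1 in flight at an unadjusted p under 0.05. The globins held 16.4% ± 4.38 of TPM in ground and 17.4% ± 2.41 in flight WT mice, and 20.5% ± 3.11 in ground and 19.4% ± 2.59 in flight KO mice (SD, n = 6 each). The exact permutation test for flight on this share gave p = 0.697 in WT and p = 0.506 in KO mice (two-sided, adjusted over 12 tests 0.76 and 0.607).

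Levels were also taken per 1000 TPM of globin RNA. On this scale all 6 FL-WT mice were below all GC-WT mice for Trim58, Trim10, Xpo7 and Fbxo7, 4 of the 8 genes taken for function, where 4.83% of all tested genes showed this, and also for Hemgn. All 6 FL-KO mice were below all GC-KO mice for 8 of the 8 genes, Bnip3l and Ube2l6 included, where 13.2% of all genes showed this, and also for Ube2o and Hemgn. Xpo7 was at 0.474 ± 0.112 in GC-WT and 0.179 ± 0.0441 (SD, n = 6) in FL-WT mice, and Ube2l6 at 1.22 ± 0.0502 in GC-KO and 0.959 ± 0.0308 (SD, n = 6) in FL-KO mice. With each library scaled to the same globin sum, the counts of called genes in flight were as with TPM, 2 and 3 of 8.

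**Figure D5:**
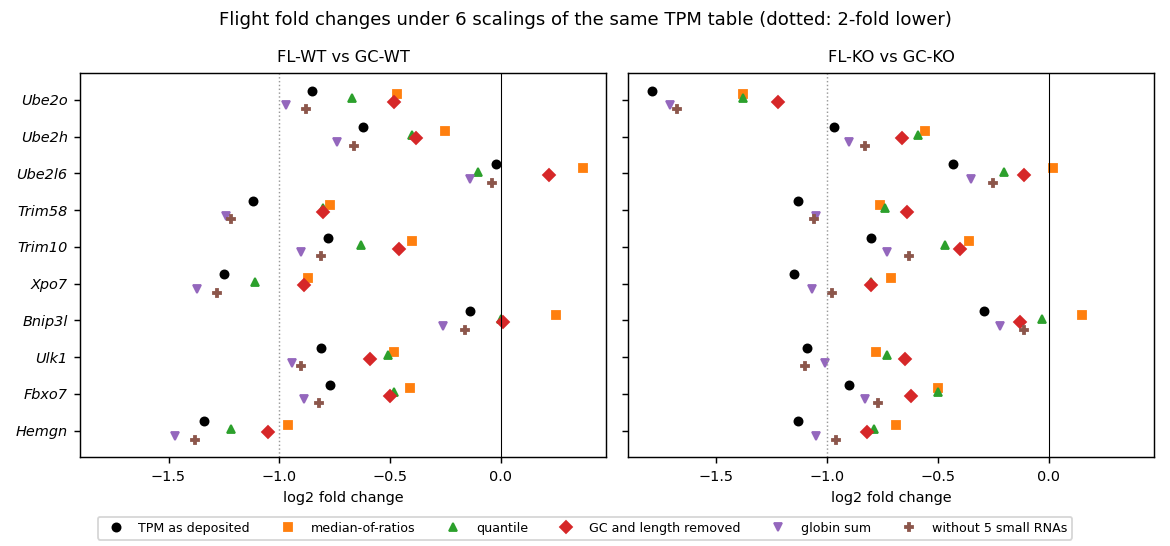
Log2 fold change for flight (horizontal axes) of the 10 genes under 6 scalings of the same table, with WT mice left and KO mice right. Trim58, Xpo7 and Hemgn keep values of -0.64 or lower under all 6, while Ube2l6 and Bnip3l cross 0.

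Some markers of other cell types also moved with flight. The summed TPM of 10 neutrophil genes was 39300 ± 8330 in GC-WT and 54200 ± 6910 (SD, n = 6) in FL-WT mice, and for KO mice 48600 ± 7870 on the ground against 54000 ± 7580 in flight, with ranges of 28900 to 53900, 43000 to 59700, 40600 to 62600 and 48300 to 65100. S100a8 and S100a9 made up most of this sum, with means of 15100 and 16600 TPM in GC-WT and 21800 and 24000 TPM in FL-WT mice. At the adjusted p alone, 5 of these 10 genes were higher in FL-WT mice, where 123 of all 12373 genes were higher. In FL-KO mice 3 of the 10 (Ltf, Mmp9 and Mpo) were lower, against 53.1% of all genes, so the sum does not stand for all 10 genes. The summed TPM of 6 early erythroid genes (Kit, Gata2, Epor, Tfrc, Car1 and Myb) was 208 ± 45.8 in GC-WT and 127 ± 31.0 in FL-WT mice, and 217 ± 35.9 in GC-KO and 125 ± 29.2 (SD, n = 6) in FL-KO mice, with ranges of 149 to 271, 85.1 to 160, 187 to 277 and 93.3 to 177. Of these 6 genes, 2 (Epor and Tfrc) were called lower in each genotype, against 0.938% of all genes in WT and 2.13% in KO mice. By flow cytometry of thawed marrow cells, the study found erythroid progenitors without Ter119 to be more frequent in flight mice of both genotypes. That is the opposite direction to this sum, and how cell frequency and RNA relate here was not tested. Of 8 B lineage genes, 7 were lower at the adjusted p alone in each flight comparison, against 39.0% of all genes in WT and 53.1% in KO mice. Their summed TPM was 176 to 257 in ground and 90.8 to 226 in flight WT mice, and 117 to 177 in ground and 77.1 to 124 in flight KO mice. Of 6 megakaryocyte genes, 4 and 6 were lower in this way, with summed ranges of 94.1 to 308, 49.2 to 164, 101 to 189 and 32.4 to 141. Of 8 monocyte and macrophage genes 0 and 5, and of 6 T and NK genes 1 and 1, were lower at the adjusted p alone, against the same shares of all genes. Of 9 tested erythroid markers, 4 and 5 were called lower, against 0.938% and 2.13% of all genes. Epor and Tfrc are among these in both genotypes and were also counted as early erythroid genes, and Slc4a1 was also counted in the membrane skeleton. The summed TPM of the 9 markers, mostly globin RNA, was 96600 ± 26300 in GC-WT and 103000 ± 14200 in FL-WT mice. It was 125000 ± 19100 in GC-KO and 120000 ± 16200 (SD, n = 6) in FL-KO mice. No marker was at 0 in any library, and the part of cell composition in the members' fall was not tested. The 100 most abundant genes held 87.1% ± 1.28 of TPM in FL-KO and 83.9% ± 1.84 (SD, n = 6) in GC-KO mice (exact permutation test, p = 0.00216, the smallest that 6 against 6 mice allow, adjusted 0.0259). The share of the 5 small RNAs was 51.2% ± 4.46 in FL-KO and 44.7% ± 4.68 in GC-KO mice (SD, n = 6, exact permutation test, p = 0.00866, adjusted 0.052), and with these RNAs left out of the total 2 of the 8 genes, Trim58 and Ulk1, were still called in KO mice.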

How the data were processed

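RNA of cryopreserved bone marrow cells was isolated by the authors with ISOGEN-LS, and strand-keeping libraries (MGIEasy RNA Directional kit) were read on the DNBSEQ-G400. Per the labels and the study's methods, reads were mapped to mm10 with STAR 2.6.1, and the deposited TPM were estimated by the authors with RSEM 1.3.1. Each library summed to 999999.5 to 1000001.1 TPM. Counts were not in the table used here, so depth and counting error are unknown.

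Groups were taken from the sample labels. IDs were matched to GENCODE M21 on GRCm38 (54723 of 54752 named), and all 10 members were found. In R 4.3.3, limma 3.58.1 was fitted to log2(TPM + 1), each group having its own mean, for the 12373 genes above 1 TPM in at least 1 library. Genes were called at a Benjamini-Hochberg adjusted p under 0.1 over all tested genes and at least 2-fold. The interaction was tested in the same fit. Shares per library were compared with two-sided exact permutation tests of the mean. The steps were tested on simulated data.

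The members and all lists were chosen with earlier results of these data known. The text names all 10 members, their direct partners, in each other list the called genes with the largest change (at most 3 per list and comparison), and the genes most like each member by Pearson's r. Psmf1, Rmnd5a, Rmnd5b, Alas2 and the neutrophil and erythroid markers named singly were added after their values were seen. Alternatives covered the pseudocount (0.1), filters, scalings (median-of-ratios, quantile, globin sum, without 5 small RNAs), removal of trends with GC content and length, a variance trend, the groups in the fit, thresholds, a block for the replicate number and omission of each library in turn. Median-of-ratios scaling with the block was added after the data were seen. Ahsp of the erythroid markers was not analysed here. Figures and descriptions were made with matplotlib 3.10.9, scipy 1.17.1, pandas 2.3.3 and numpy 2.4.6 under Python 3.11.15.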

Additional observations from a re-analysis of the deposited data

Results flagged for a closer look

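In 3 of the 40 sets of 6 mice checked (10 genes in 4 groups), the highest mouse stood apart by Dixon's criterion, in which the gap to its neighbour is divided by the range. By chance about 1 in 20 sets would. Xpo7 was at 94.3 TPM in GC-KO mouse 11, with a gap of 0.702 of the range. Ulk1 was at 2.16 TPM in FL-KO mouse 11, with a gap of 0.829 of the range. Hemgn was at 50.36 TPM in FL-KO mouse 09, with a gap of 0.666 of the range.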

How the results depend on the processing

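The number of the 8 genes called lower was 2 for flight in WT mice, 3 for flight in KO mice, 0 for KO on the ground and 1 for KO in flight. It was 0 in all 4 after median-of-ratios scaling and after removal of trends with GC content and length. With quantile normalization it was 1 for flight in WT mice (Xpo7) and 0 in the others. With globin-sum scaling it was 1 for KO on the ground (Ulk1, -1.14) and 2 for KO in flight (Ulk1 and Ube2h, the latter at -1.04), with the flight counts kept at 2 and 3. With no minimum fold change it was 6, 8, 2 and 2 in the order given first. With each library left out in turn it was 2 to 2, 2 to 4, 0 to 0 and 0 to 1 in that order. Without the 5 small RNAs it was 2 for flight in KO mice, where Xpo7 was at -0.98, and with a pseudocount of 0.1 it was 4. Over all genes the counts called lower for flight in WT and KO mice, 116 and 264, were 494 and 925 with a pseudocount of 0.1, 230 and 189 without the small RNAs, 227 and 178 with globin-sum scaling, 32 and 25 with quantile normalization, 26 and 15 with the GC and length trends removed, and 15 and 22 with median-of-ratios scaling. For these differences the cause was not tested. The interaction stayed at 0 called genes under every alternative run. The replicate block left the counts at 2 and 3 in flight and 0 for the interaction, and with median-of-ratios scaling and the replicate block together they were 0, 0 and 0. Under that scaling Ube2h for flight in WT mice had an adjusted p of 0.0472 with the replicate block and 0.155 without it. The shared mouse numbers are no pairs by the labels: ground and flight mice of a number deviated together at r = -0.026 to 0.273, above 0.1 in 7 of 12 numbers, and 5 of 12 flight mice were closest to their own number. Over all single fold changes of the 8 genes and all alternatives, 1368 kept their side of the threshold, 25 lost the call, 7 gained it and 0 called values turned. Many of the 1368 could not move, since omitting a library of a group outside the comparison leaves its fold change as it was. Of the lost calls, 6 came with median-of-ratios scaling and 6 with the GC and length trends removed, after which 0 calls remained. The depth of the libraries is unknown, so low genes such as Ulk1 carry a counting error that cannot be given.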
